A study of Mus musculus with 15 samples.

Results

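The mitochondrial solute carrier family 25 (SLC25) was followed in quadriceps muscle of 15 adult mice. Its members were taken as the protein-coding genes whose GENCODE mouse symbol starts with Slc25a, with a mean of at least 10 normalised reads over the 15 libraries. Of 46 such genes in a table of 50686, 38 met this level and 8 did not, and 1 further family member is not analysed here. Values are read counts divided by a size factor per library, called normalised reads below. The study asked whether exercise during pregnancy alters what parental obesity leaves in the muscle of the offspring. All mice were C57BL/6, and each group holds 3 libraries. They are numbered here as replicates 1 to 3 in the order of the samples, since the labels give no replicate numbers. In the control group both parents ate normal chow and the dam was sedentary. For the maternal groups, dams fed a 60% high-fat diet for 6 weeks were mated with lean males, and during pregnancy the dam's running wheel was locked (maternal sedentary) or free (maternal exercised). In the paternal groups the father had eaten that diet for 6 weeks, and the lean dam had a locked wheel (paternal sedentary) or a free wheel (paternal exercised). Offspring of all 5 groups ate chow and were sedentary from the day after birth, and were killed at 10 months. The maternal and paternal arms ran in parallel and share the control group. No source used here says which animals were littermates, so a p-value reflects only the spread between these samples.

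Most SLC25 proteins sit in the inner mitochondrial membrane and exchange metabolites between cytosol and matrix. In skeletal muscle the best known tasks are to bring ADP and phosphate to the ATP synthase, to return ATP to the contracting fibre, and to carry reducing equivalents inward through the malate-aspartate shuttle. Other members bring in cofactors, amino acids, iron and glutathione. Slc25a17 is an exception as a carrier of the peroxisome, and Slc25a46 sits in the outer mitochondrial membrane.

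The libraries held 18457663 to 26981745 counted reads. A list of 10 skeletal muscle markers stood at 181567 to 250542 CPM (reads scaled to library size) and was present in every library. Liver transcripts, summed over 22 markers, stood at 4058 CPM in maternal sedentary replicate 2, 502 in maternal sedentary replicate 3, 180 in control replicate 2 and 244 in paternal sedentary replicate 1, against 10.2 to 36.2 in the other 11 libraries. None of these 4 libraries is from an exercised dam. Fewer genes were detected in maternal sedentary replicate 3 (17581 with a read) and control replicate 2 (17699) than elsewhere (19062 to 20771). Results that rest on these libraries are given with and without them.

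Per length, the muscle pool of SLC25 transcripts was dominated by Slc25a4, the ADP/ATP carrier of heart and muscle. Slc25a4 stood at 32459 ± 3595 normalised reads per kilobase of merged exon (SD over 15 libraries) and made up 75.6% of the summed level of the 38 members. The oxoglutarate carrier Slc25a11 followed with 5.75%, the phosphate carrier Slc25a3 with 5.10%, the aspartate/glutamate carrier Slc25a12 with 3.48% and the carrier Slc25a34, whose substrate is unsettled, with 1.90%. Slc25a11 (2465 ± 265 per kilobase) and Slc25a3 (2164 ± 177) differed by less than the sum of their SDs. Each other member held less than 1% by merged exon length. By substrate, ADP/ATP exchange took 76.1% of the summed level (73.6% to 78.0% across libraries), di- and tricarboxylates 5.90%, phosphate 5.10%, aspartate and glutamate 3.96% and the 8 cofactor and nucleotide carriers together 2.35%. The lowest member per length was Slc25a53 with 3.59 ± 0.823 per kilobase.

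**Figure D1:**
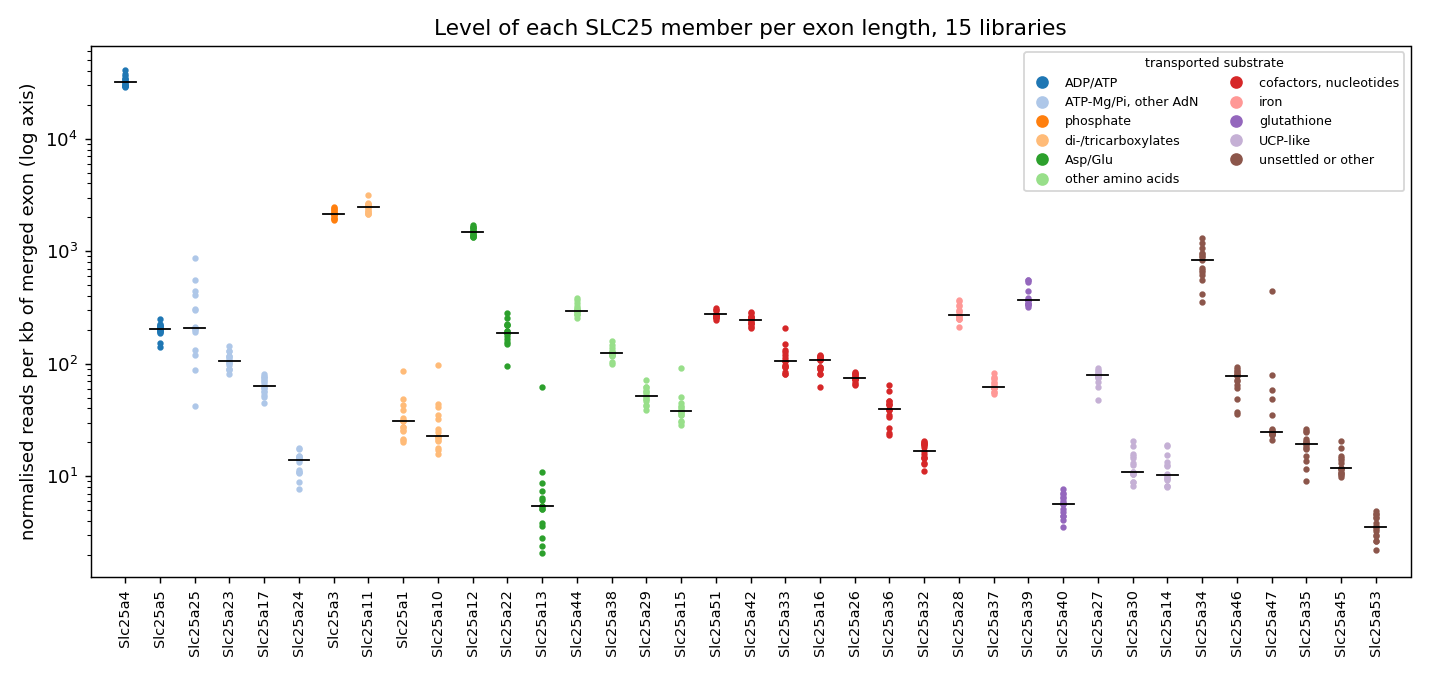
Level of 37 of the 38 members in normalised reads per kilobase of merged exon (log axis), with 1 dot per library, a line at the median and colour by transported substrate. Slc25a4 stands above every other member in all 15 libraries, and Slc25a25, Slc25a13 and Slc25a47 spread over more than 20-fold between libraries.

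Members differed widely in how steady they were. The fold between the highest and lowest library was 1.28 for Slc25a12, 1.28 for the NAD carrier Slc25a51, 1.29 for Slc25a3 and 1.43 for Slc25a4. It was 20.7 for the ATP-Mg/phosphate carrier Slc25a25, 21.3 for Slc25a47 and 29.5 for Slc25a13. Within groups, the median SD of the members' log2 values was 0.26 in control, 0.31 in maternal sedentary, 0.19 in maternal exercised, 0.25 in paternal sedentary and 0.15 in paternal exercised libraries, beside 0.26, 0.22, 0.20, 0.25 and 0.17 over all genes tested. Maternal sedentary is the group in which the members' spread stood furthest above that of all genes, and it holds the library with the most liver transcripts.

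In what follows, the values of a group are in the order of replicates 1 to 3, and differences are log2 differences with their standard error, on the scale of log2 of the normalised reads plus 1. Where members are counted in a fit with libraries left out or a covariate added, the count over all genes can change as well. It is given only where stated.

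Slc25a4 (ENSMUSG00000031633.4, chr8:46206797-46211284, minus strand, GRCm38) exchanges cytosolic ADP for matrix ATP. It held 80232, 95867 and 70198 in control, 85329.9, 75768 and 88547 in maternal sedentary, 67213, 75574 and 69896 in maternal exercised, 69048, 79275 and 79579 in paternal sedentary, and 71952, 68679 and 68480.0 in paternal exercised libraries. The highest library was a control, and the maternal exercised libraries lay just below all 3 maternal sedentary ones (75574 against 75768 at the nearest). Slc25a5, the ADP/ATP carrier found mainly in dividing and non-muscle cells, held 232, 362 and 309.7 in control, 324, 415 and 254 in maternal sedentary, 348, 323 and 368 in maternal exercised, 352, 357 and 358 in paternal sedentary, and 330.3, 338 and 317 in paternal exercised libraries. The paternal exercised libraries lay below the paternal sedentary ones, and the controls spanned most of the range. Slc25a5 has a processed pseudogene in the annotation (Slc25a5-ps), so its reads may be split. The per-length ratio of Slc25a4 to Slc25a5 had a median of 155 over the libraries and reached 244 and 242 in its highest pair. The testis form Slc25a31 had no read in any library, which over 341893391 reads allows up to 0.00877 CPM (3 counts, counting error only).

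Slc25a3 (ENSMUSG00000061904.12, chr10:91116574-91124059, minus strand) imports phosphate for ATP synthesis and also copper. It held 11770.2, 11592 and 13116 in control, 12704, 11679.8 and 10509.7 in maternal sedentary, 12878, 11794 and 11042 in maternal exercised, 13545, 13596 and 11047 in paternal sedentary, and 10747, 12109 and 12024 in paternal exercised libraries. All groups overlapped.

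Slc25a11 (ENSMUSG00000014606.14, chr11:70644196-70647479, minus strand) exchanges oxoglutarate for malate and is a carrier of the malate-aspartate shuttle. It held 5618, 6663 and 5149.8 in control, 5719, 5567 and 5362 in maternal sedentary, 4659, 4857 and 4540.2 in maternal exercised, 5241, 5496 and 5332 in paternal sedentary, and 4533, 4885 and 4771 in paternal exercised libraries. Each of the 6 libraries of exercised dams lay below each of the 9 libraries of sedentary dams (4533 to 4885 against 5149.8 to 6663). No other member was placed this way, 0 members lay the opposite way, and of all 13499 genes tested 0.104% lay below and 0.23% above in that manner. This pattern was singled out after its values were seen. A stretch before its RefSeq start (chr11:70647059-70647234, GRCm38.p6, minus strand, from RefSeq) is printed because Slc25a11 is the member whose libraries separate, and it lies inside the GENCODE extent of the gene but outside annotated exons. Capitals mark CTCGCGAG and the CCAAT box, on either strand.
Slc25a11: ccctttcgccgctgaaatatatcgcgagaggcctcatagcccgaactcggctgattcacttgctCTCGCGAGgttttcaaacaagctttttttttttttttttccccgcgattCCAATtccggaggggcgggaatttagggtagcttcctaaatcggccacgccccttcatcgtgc
The letters CTCGCGAG were found in 0.761% of the 32851 promoters of the RefSeq table (searched in the 250 bases before a start), and among members only in Slc25a11 and Slc25a4. Exons of Slc25a11 share 189 bases (8.92% of its exon length) with Rnf167 on the opposite strand, and no source used here states whether the counting used strand.

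The other di- and tricarboxylate carriers were far lower. Slc25a10, which exchanges malate or succinate for phosphate, held 121, 141 and 74.8 in control, 77.3, 338 and 150.2 in maternal sedentary, 53.9, 91.1 and 62 in maternal exercised, 79.3, 71.1 and 111 in paternal sedentary, and 85.1, 73 and 59.4 in paternal exercised libraries. Slc25a1, the citrate carrier that feeds cytosolic fatty acid synthesis, held 92.5, 104 and 58.7 in control, 55, 185 and 83.2 in maternal sedentary, 43.8, 46.1 and 68.7 in maternal exercised, 45.4, 59.8 and 70.9 in paternal sedentary, and 67, 55.4 and 67.1 in paternal exercised libraries. Both had their highest value in maternal sedentary replicate 2, the library with the most liver transcripts, and every pair of groups compared overlapped.

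Among carriers of aspartate and glutamate, Slc25a12 (aralar, ENSMUSG00000027010.16, chr2:71271063-71367749, minus strand) is the muscle and brain form of the malate-aspartate shuttle. It held 11992, 12459 and 9769 in control, 11877, 10287 and 12135 in maternal sedentary, 9825, 10988 and 10300.4 in maternal exercised, 10552, 10981 and 9997 in paternal sedentary, and 11595, 11199 and 10087 in paternal exercised libraries. The values overlapped between all groups. Its paralogue Slc25a13 (citrin), best known in liver, held 9.14, 24.2 and 32.9 in control, 20.5, 235 and 10.8 in maternal sedentary, 19.3, 20.6 and 14.6 in maternal exercised, 41, 28.3 and 13.8 in paternal sedentary, and 7.95, 23.6 and 19.5 in paternal exercised libraries. Maternal sedentary replicate 2 stood apart from all others, and the groups overlapped. Slc25a22 (ENSMUSG00000019082.18, chr7:141429744-141437892, minus strand) imports glutamate with a proton. It held 889, 1523 and 1168 in control, 1331, 1689 and 1322 in maternal sedentary, 1064, 1168 and 1115 in maternal exercised, 1345, 1118 and 1124 in paternal sedentary, and 571, 999 and 943 in paternal exercised libraries. In each arm the exercised libraries lay below the sedentary ones, while the controls overlapped every other group. The lowest value was that of paternal exercised replicate 1, which also had the lowest summed slow fibre markers (661 CPM, against 1149 to 5631 in the other libraries). With the slow fibre score as a covariate, the exercise difference of Slc25a22, averaged over both arms, was -0.27 ± 0.12 in place of -0.46 ± 0.15.

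Of the other amino acid carriers, Slc25a44, which takes up branched-chain amino acids, held 1057, 1062 and 996 in control, 1106, 988 and 1082 in maternal sedentary, 1049, 1059 and 1230.2 in maternal exercised, 906, 973 and 1380.2 in paternal sedentary, and 1128, 1320.4 and 1157 in paternal exercised libraries. The paternal exercised libraries lay above the controls, and the paternal sedentary libraries held both the lowest and the highest value. Slc25a38, the glycine carrier needed for haem synthesis, ranged from 271 to 438, and Slc25a29, a carrier of basic amino acids, from 100.5 to 186. The ornithine carrier Slc25a15, part of the urea cycle, ranged from 161 to 514 with its top value in maternal sedentary replicate 2.

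Slc25a42 (ENSMUSG00000002346.16, chr8:70184340-70212305, minus strand) carries coenzyme A into the matrix. It held 1381, 1706 and 1469 in control, 1527, 1572 and 1557 in maternal sedentary, 1379, 1479 and 1324 in maternal exercised, 1591, 1503 and 1716 in paternal sedentary, and 1233, 1279 and 1377 in paternal exercised libraries. Exercised libraries lay below sedentary ones in both arms, and paternal exercised libraries also lay below the controls, by a narrow margin (1377 against 1381). The exon-free stretch upstream of its start (chr8:70212306-70212531, GRCm38.p6, minus strand, from RefSeq) is shown because it holds 5 CCAAT boxes, in capitals, read on either strand (ATTGG on the other).
Slc25a42: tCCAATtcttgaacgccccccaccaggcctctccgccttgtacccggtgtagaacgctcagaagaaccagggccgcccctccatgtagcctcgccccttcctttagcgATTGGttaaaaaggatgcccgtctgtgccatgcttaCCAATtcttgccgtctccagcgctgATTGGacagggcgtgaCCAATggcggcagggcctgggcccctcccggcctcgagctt
As many as 5 CCAAT letters were found in 0.213% of all promoters in the table, and at least 1 in 33.8%. Of the 29 members with an entry, 17 had a CCAAT box in at least 1 entry. Counted per entry, as for the 33.8%, it was in 20 of the 38 entries of these members (52.6%). This motif and CTCGCGAG were chosen after the sequences were seen. Of motifs tied to mitochondrial genes, the GABP core CCGGAAG was found at Slc25a3, Slc25a4, Slc25a17 and Slc25a38 (6.91% of all promoters), the NRF1 core at Slc25a3 (3.74%) and the ERR site AAGGTCA at Slc25a34 (4.08%). The TATA letters TATAAA were in no member's window and in 12.4% of all promoters.

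Slc25a32 (ENSMUSG00000022299.8, chr15:39091231-39112716, minus strand) carries folate and FAD. It held 80.3, 88.9 and 95.2 in control, 90.4, 87.9 and 68.1 in maternal sedentary, 123, 102 and 115 in maternal exercised, 111, 117 and 77.8 in paternal sedentary, and 126, 119 and 116 in paternal exercised libraries. Both exercised groups lay above the controls, maternal exercised lay above maternal sedentary, and the paternal groups overlapped.

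Slc25a33, a pyrimidine nucleotide carrier, held 151, 238 and 210.1 in control, 184, 180.2 and 227 in maternal sedentary, 176, 159 and 201 in maternal exercised, 152, 175 and 251 in paternal sedentary, and 284, 389 and 199 in paternal exercised libraries. Paternal exercised replicates 1 and 2 were the highest of all, and replicate 3 lay among the other groups. Slc25a51, the NAD carrier, held 1509, 1637 and 1339.5 in control, 1434, 1419.5 and 1454 in maternal sedentary, 1444, 1401 and 1646 in maternal exercised, 1524, 1446 and 1517 in paternal sedentary, and 1532, 1711 and 1531 in paternal exercised libraries. It varied little, and all paternal exercised libraries lay above the paternal sedentary ones. Slc25a26, which imports S-adenosylmethionine, ranged from 309.7 to 404, with maternal exercised libraries below both the maternal sedentary and the control ones. Slc25a16 ranged from 299 to 572 and the pyrimidine nucleotide carrier Slc25a36 from 221 to 616.

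The calcium-regulated ATP-Mg/phosphate carriers set the size of the matrix adenine nucleotide pool. Slc25a25 (ENSMUSG00000026819.15, chr2:32414487-32451445, minus strand) was the most abundant of them and held 333, 6887 and 1615 in control, 687, 1031 and 4359 in maternal sedentary, 2413, 3194 and 1501 in maternal exercised, 1556, 1667 and 2349 in paternal sedentary, and 3493, 935 and 1617 in paternal exercised libraries. The lowest and the highest value were both controls, so its spread within that group covered all other groups. Slc25a23 ranged from 429 to 760.3. Slc25a24 held 47.8, 26.3 and 30.3 in control, 39.1, 45.7 and 51.9 in maternal sedentary, 49.9, 37.6 and 60.8 in maternal exercised, 51.7, 49.3 and 36.4 in paternal sedentary, and 51.1, 60.1 and 37.4 in paternal exercised libraries. The peroxisomal carrier Slc25a17 held 193, 127 and 145 in control, 213, 173 and 172 in maternal sedentary, 181, 164 and 229.8 in maternal exercised, 215, 204 and 159 in paternal sedentary, and 151, 220.3 and 198 in paternal exercised libraries. Slc25a24 and Slc25a17 were lowest in control replicate 2, and all their groups overlapped.

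Iron enters through the mitoferrins. Slc25a28 (mitoferrin 2, the form of non-erythroid cells) held 988, 1117 and 943 in control, 1096, 926 and 1379 in maternal sedentary, 1003, 1082 and 1253 in maternal exercised, 790.4, 945 and 1209 in paternal sedentary, and 1011, 1346 and 993 in paternal exercised libraries. Slc25a37 (mitoferrin 1, the erythroid form) held 407, 364 and 369 in control, 365, 413 and 502 in maternal sedentary, 340.0, 444 and 340.2 in maternal exercised, 393, 463 and 377 in paternal sedentary, and 448, 322 and 366 in paternal exercised libraries. Both were highest in maternal sedentary replicate 3, and all groups overlapped. Per length, Slc25a28 exceeded Slc25a37 by 3.23 to 6.72 times in every library.

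Slc25a39, a glutathione importer, ranged from 888 to 1523 and its paralogue Slc25a40 from 29.5 to 65.1. The uncoupling protein-like carriers were Slc25a27 (188 to 357), Slc25a14 (18.8 to 44.7) and Slc25a30. Slc25a30 held 72.1, 40.4 and 49.8 in control, 57.8, 84.4 and 67 in maternal sedentary, 40.7, 49.8 and 68.7 in maternal exercised, 48.1, 37.2 and 48.2 in paternal sedentary, and 60.2, 94.2 and 47.6 in paternal exercised libraries. The maternal sedentary libraries lay above the paternal sedentary ones.

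Of the carriers with unsettled or other substrates, Slc25a34 (ENSMUSG00000040740.7, chr4:141618824-141623821, minus strand) held 951, 1825 and 1751 in control, 2579, 1878 and 2542 in maternal sedentary, 3128, 1469 and 2859 in maternal exercised, 2372, 1634 and 2411 in paternal sedentary, and 1117, 3475 and 2251 in paternal exercised libraries. The maternal sedentary libraries lay above the controls. Its lowest values were in control replicate 1 and paternal exercised replicate 1, the libraries with the lowest slow fibre markers (1149 and 661 CPM). With the slow fibre score as a covariate, its difference between maternal sedentary and control was 0.44 in place of 0.67 ± 0.37. Slc25a35 held 71.1, 90.9 and 96.1 in control, 92.2, 75.6 and 33.5 in maternal sedentary, 49.9, 74.1 and 42.8 in maternal exercised, 73.1, 78.4 and 66 in paternal sedentary, and 68.1, 63.6 and 55.2 in paternal exercised libraries. The paternal exercised libraries lay below the controls. Exons of Slc25a35 share 31.3% of their length with Rangrf on the opposite strand, so its reads may belong in part to that gene. The outer membrane protein Slc25a46 ranged from 192 to 504, Slc25a45 from 27 to 56.3 and Slc25a53 from 17.7 to 39.2.

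Slc25a47 (ENSMUSG00000048856.8, chr12:108836046-108856815, plus strand) is known as a carrier made mainly in liver. It held 104, 176 and 73 in control, 73.6, 1329.9 and 236 in maternal sedentary, 76.3, 78.9 and 73.2 in maternal exercised, 146, 70.3 and 70.9 in paternal sedentary, and 62.4, 69.5 and 71.3 in paternal exercised libraries. Its 4 highest libraries were the 4 with liver transcripts. The stretch before its RefSeq start (chr12:108850879-108851128, GRCm38.p6, plus strand) is shown because the maternal exercise difference of Slc25a47 depended on those libraries. It was -1.89 with them and 0.05 without them. The stretch lies inside the GENCODE extent of the gene but outside every exon. Capitals mark its CCAAT box.
Slc25a47: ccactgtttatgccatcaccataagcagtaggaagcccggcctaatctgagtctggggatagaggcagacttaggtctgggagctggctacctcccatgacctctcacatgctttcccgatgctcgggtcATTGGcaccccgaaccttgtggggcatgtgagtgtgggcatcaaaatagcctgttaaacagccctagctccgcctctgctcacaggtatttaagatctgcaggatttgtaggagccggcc

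**Figure D2:**
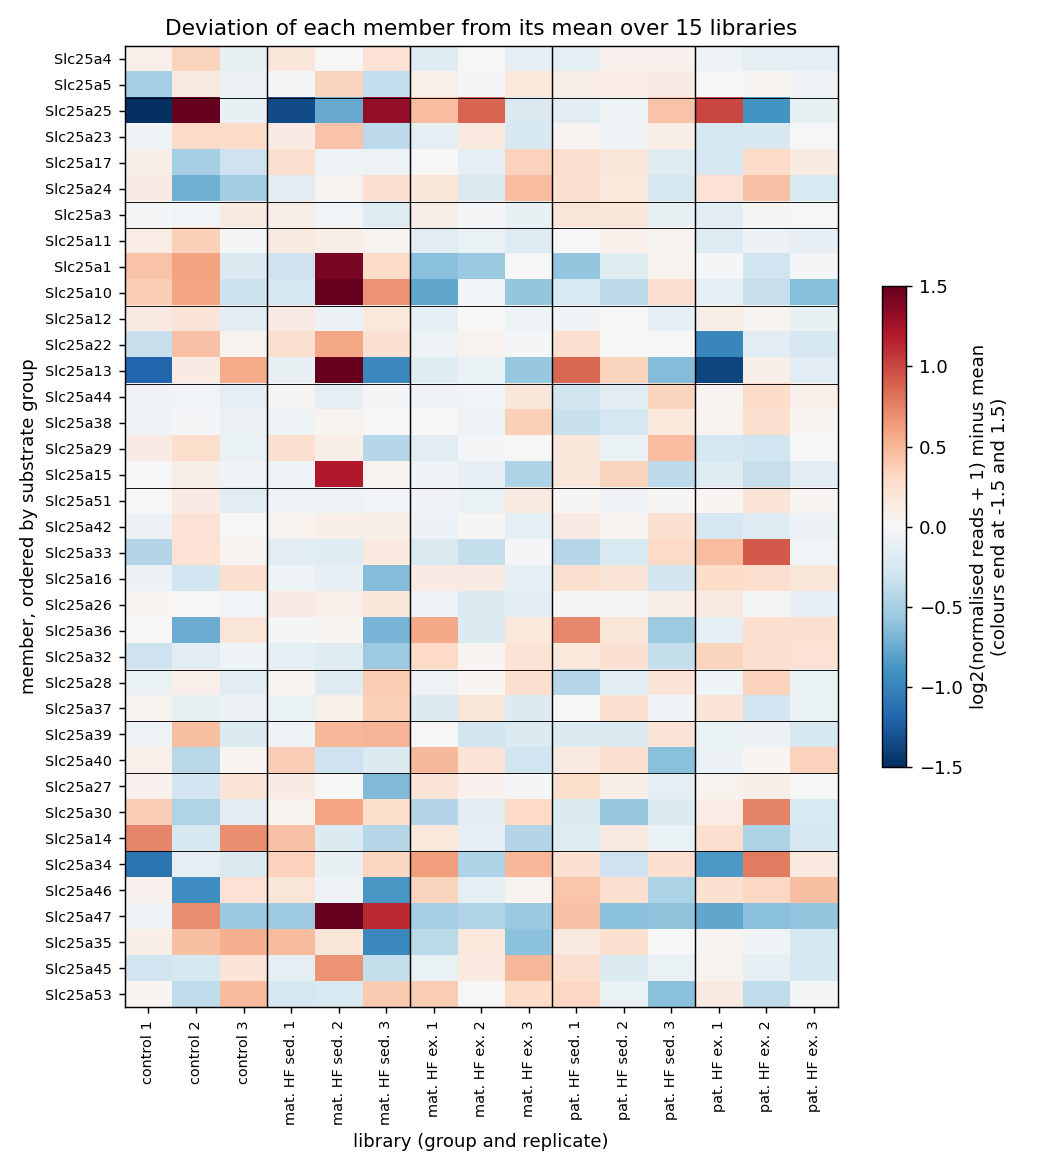
Each row is 1 of 37 of the 38 members, ordered by substrate, and each column 1 of the 15 libraries; colour is log2(normalised reads + 1) minus the member's mean over all libraries, ending at -1.5 and 1.5. Slc25a1, Slc25a10, Slc25a13, Slc25a15 and Slc25a47 are highest in maternal sedentary replicate 2, and Slc25a25 spans both ends of the scale within the controls.

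The maternal high-fat diet without exercise left no member past the threshold against controls. limma called 0 members and 0 of 13499 genes (0% of all genes) at an adjusted p of 0.05, and at an unadjusted p under 0.05 it found 0 members, beside 4.04% of all genes. The members' median difference was 0.04, beside 0.01 over all genes. Slc25a34 and Slc25a26 were higher in all maternal sedentary libraries than in all controls (2 of 38, beside 4.44% of all genes). Slc25a34 averaged 2333 ± 394 against 1509 ± 485 (SD, n = 3), a difference of 0.67 ± 0.37 (limma adjusted p = 1). Slc25a47 had a difference of 1.37 ± 0.69 and Slc25a24 of 0.42 ± 0.28, both with overlapping groups. Without maternal sedentary replicate 2 Slc25a47 was at 0.26, and without the 4 liver-containing libraries Slc25a47 was at -0.24 and Slc25a24 at 0.0395. Without control replicate 1, its lowest library, Slc25a34 was at 0.37. DESeq2 on the recovered reads called 18 genes and no member.

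Exercise of high-fat mothers, against sedentary high-fat mothers, gave the most members at an unadjusted p under 0.05. These were 9 of 38, beside 9.54% of all genes. Of them 8 were lower (among them Slc25a1, Slc25a10, Slc25a11, Slc25a15, Slc25a26, Slc25a39 and Slc25a47) and 1 higher (Slc25a32), beside 5.33% of all genes lower and 4.21% higher. limma called 0 members and 0 genes (0%) at an adjusted p of 0.05. Libraries did not overlap for 6 members that were lower (among them Slc25a4, Slc25a11, Slc25a22, Slc25a26 and Slc25a42; 8.61% of all genes) and for 1 that was higher (Slc25a32; 8.56%). Slc25a11 averaged 4685 ± 160.2 against 5549 ± 179 (n = 3), a difference of -0.24 ± 0.10 (limma adjusted p = 0.516). Slc25a32 averaged 113 ± 10.7 against 82.1 ± 12.2, a difference of 0.47 ± 0.18. Without the 4 liver-containing libraries, a fit that keeps 1 maternal sedentary library, Slc25a32 was at 0.32. Slc25a26 averaged 326 ± 20.1 against 391 ± 12.7, a difference of -0.27 ± 0.11. The largest differences were those of Slc25a47 (-1.89 ± 0.69) and Slc25a10 (-1.22 ± 0.41), whose groups overlapped.

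These counts changed when the library with the most liver transcripts was left out. Without maternal sedentary replicate 2, 2 members had an unadjusted p under 0.05 in place of 9, and with the liver score as a covariate 1 had. Such fits also change the count over all genes (1845 of 13514 without maternal sedentary replicate 1, beside 1288 of 13499 with all libraries). That example is a rise in another fit. The counts over all genes without maternal sedentary replicate 2 and with the liver score are not given here. The fall is therefore not shown to be particular to the members. Without maternal sedentary replicate 1, limma called 110 genes, among them Slc25a10 (-1.73, adjusted p = 0.0418) and Slc25a47 (-2.86, adjusted p = 0.0415). That fit leaves the maternal sedentary group with its pair of liver-containing libraries.

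Against controls, maternal exercised offspring had 1 member at an unadjusted p under 0.05, beside 8.76% of all genes, and limma called 0 genes (0%) at an adjusted p of 0.05. That member was Slc25a11, at 4685 ± 160.2 against 5810.3 ± 775 and a difference of -0.30 ± 0.10 (limma adjusted p = 0.566). Slc25a11, Slc25a15 and Slc25a26 lay below all controls (4.72% of all genes) and Slc25a32 above them (5.54%). Slc25a35 had a difference of -0.65 ± 0.31, with overlapping libraries.

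A paternal high-fat diet with sedentary dams gave no member at an unadjusted p under 0.05 (2.87% of all genes), and none whose libraries did not overlap with the controls (5.7%). limma called 0 genes (0%) at an adjusted p of 0.05, and the members' median difference was 0.03, beside 0.01 over all genes. The members with the smallest p were Slc25a17 (0.32 ± 0.20, 95% interval -0.10 to 0.74), Slc25a5 (0.26 ± 0.17, interval -0.11 to 0.64) and Slc25a24 (0.42 ± 0.28, interval -0.17 to 1.01). Single libraries moved these values: without control replicate 1 they were 0.49, 0.088 and 0.66, and without control replicate 2 0.19, 0.41 and 0.25.

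Within the paternal arm, exercise of the lean dams left 3 members at an unadjusted p under 0.05 (3.76% of all genes) and 0 of 13499 genes (0%) past the adjusted threshold of limma. The coenzyme A carrier Slc25a42 averaged 1296 ± 73.5 against 1603 ± 107 (n = 3), a difference of -0.31 ± 0.10 (limma adjusted p = 0.991). Slc25a22 averaged 837 ± 233 against 1196 ± 129.5, a difference of -0.55 ± 0.21. Slc25a33 averaged 290.4 ± 95.2 against 193 ± 51.6, a difference of 0.57 ± 0.24 with overlapping libraries. Slc25a33 was at 0.33 without paternal exercised replicate 2, its highest library. Fitting the code that opens each sample title put Slc25a33 at 1.24. Paternal exercised replicate 2 is the only library of its group to share such a code with paternal sedentary libraries. The 1.24 therefore rests on the same exercised library whose removal gave 0.33, and does not show that adjustment strengthens the difference. Slc25a22 was at -0.30 without paternal exercised replicate 1. Members at an unadjusted p under 0.05 numbered 1 without paternal sedentary replicate 1 and 1 without paternal exercised replicate 1. The count over all genes in these fits is not given here, so these numbers do not single out the members. Slc25a5, Slc25a11, Slc25a22 and Slc25a42 lay below all paternal sedentary libraries (5.5% of all genes) and Slc25a51 above them (5.11%).

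Against the controls, paternal exercised offspring had 4 members at an unadjusted p under 0.05, where 13.7% of all genes had one. Of these, Slc25a11 (-0.29 ± 0.10), Slc25a22 (-0.52 ± 0.21) and Slc25a42 (-0.22 ± 0.10) were lower on average and Slc25a32 (0.45 ± 0.18) was higher. Without paternal exercised replicate 1 Slc25a22 was at -0.26 and 2 members had an unadjusted p under 0.05, a count given without that over all genes. Without control replicate 2 Slc25a11 was at -0.19 here and at -0.20 for maternal exercised against control. limma called 0 genes (0%), and the adjusted p of these members lay between 0.291 and 0.353. Libraries did not overlap for 5 lower members (Slc25a11, Slc25a15, Slc25a35, Slc25a42 and Slc25a47; 8.7% of all genes) and 4 higher ones (Slc25a32, Slc25a38, Slc25a44 and Slc25a46; 11.7%). All comparisons with the control group share its 3 libraries, and each arm's sedentary libraries serve in several comparisons, so agreement between them is not independent.

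Maternal and paternal sedentary offspring differed at an unadjusted p under 0.05 in 3 members, all higher in the maternal group (4.35% of all genes in either direction). They were Slc25a30 (0.63 ± 0.29), Slc25a47 (1.65 ± 0.69) and Slc25a10 (0.88 ± 0.41), with a limma adjusted p of 0.723 for each and 0 genes called (0%). Without the 4 liver-containing libraries Slc25a47 was at 0.0594, Slc25a10 at -0.20 and Slc25a30 at 0.44. No member had an unadjusted p under 0.05 without maternal sedentary replicate 2, without paternal sedentary replicate 2 or with the liver score as a covariate. The count over all genes in these fits is not given here, so this does not single out the members. Slc25a30 alone had no overlap (3.99% of all genes). The exercise effect itself was tested for a difference between the arms. Slc25a30 had the smallest p, with a maternal minus paternal difference of -0.94 ± 0.41 (95% interval -1.82 to -0.07, limma adjusted p = 0.999). It was the only member at an unadjusted p under 0.05 (1.8% of all genes), with Slc25a33 at -0.71 ± 0.34 and Slc25a1 at -0.98 ± 0.51 next. Without the 4 liver-containing libraries Slc25a1 was at -0.0351 and Slc25a33 at -0.46. No member had an unadjusted p under 0.05 without maternal sedentary replicate 2, maternal exercised replicate 1 or 2, paternal sedentary replicate 2 or paternal exercised replicate 2. For these fits the count over all genes is not given here. The highest count of members was 5, without maternal sedentary replicate 1. In that fit 608 of 13514 genes had an unadjusted p under 0.05, beside 243 of 13499 with all libraries, so the rise was not confined to the members.

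Averaged over both arms, exercise of the dam went with lower carrier levels for coenzyme A, glutamate and oxoglutarate and with a higher level for folate, none of them past the adjusted threshold. At an unadjusted p under 0.05 there were 8 of 38 members (11.8% of all genes), and over the 5 groups 3 members had one in limma's F test (Slc25a11, Slc25a22 and Slc25a32; 6.71% of all genes). In the averaged comparison the 7 lower ones included Slc25a10, Slc25a11, Slc25a15, Slc25a22, Slc25a42 and Slc25a47 (5.42% of all genes lower), and the higher one was Slc25a32 (6.34% higher). limma called 0 genes (0%) at an adjusted p of 0.05. Slc25a42 averaged 1345 ± 86.6 over the 6 exercised against 1577 ± 74.7 over the 6 high-fat sedentary libraries, a difference of -0.23 ± 0.07 (95% interval -0.38 to -0.08, limma adjusted p = 0.394). Slc25a11 had a difference of -0.21 ± 0.07 (interval -0.36 to -0.06). Slc25a22 had a difference of -0.46 ± 0.15 (interval -0.77 to -0.14) and Slc25a32 of 0.36 ± 0.13 (interval 0.09 to 0.63), each with the same adjusted p. Slc25a4 had a difference of -0.18 ± 0.09 (interval -0.38 to 0.03, limma adjusted p = 0.454). Slc25a11 and Slc25a42 were the members with no overlap between the 6 and 6 libraries (0.37% of all genes lower, and 0.548% higher with no member).

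**Figure D3:**
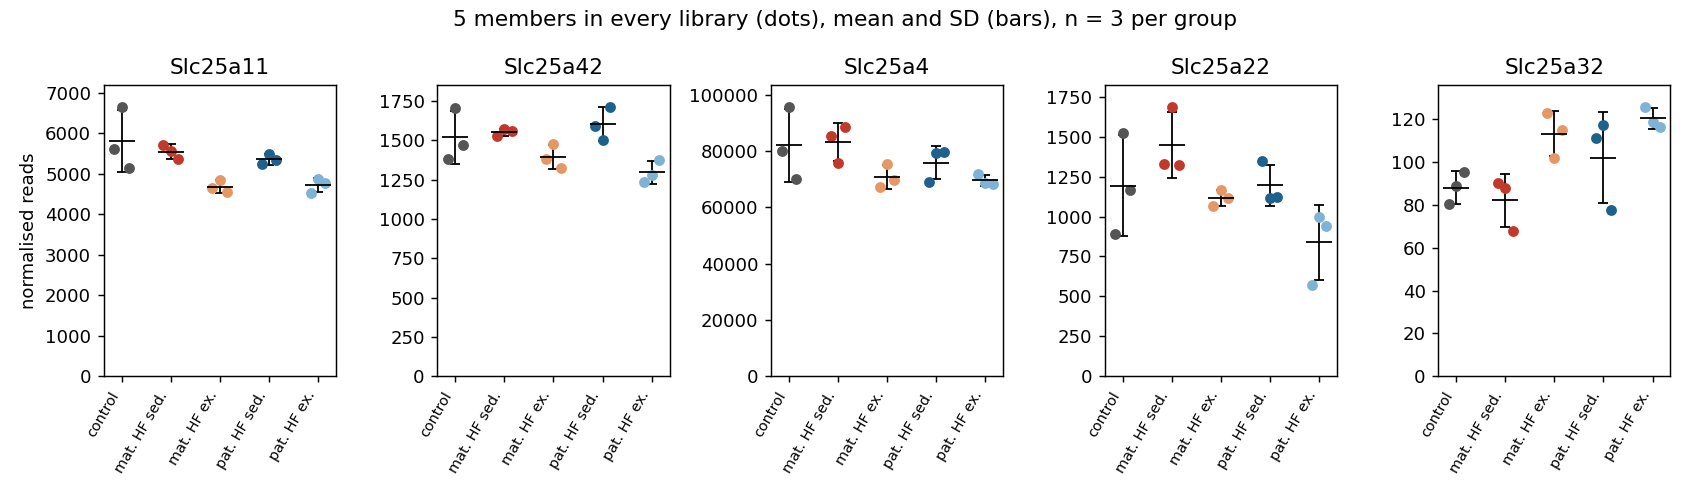
Normalised reads of Slc25a11, Slc25a42, Slc25a4, Slc25a22 and Slc25a32 in each library (dots), with the mean and SD of each group of 3 (bars) and an axis from 0. The exercised groups of Slc25a11 sit between 4533 and 4885, below every library of sedentary dams.

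The 4 members with the smallest p kept their direction under all 30 alternatives run. For Slc25a11 the difference was -0.24 ± 0.09 without the 4 liver-containing libraries and -0.22 ± 0.06 without the 2 libraries with few detected genes. Slc25a42 was at -0.22 ± 0.09 and -0.23 ± 0.07, Slc25a22 at -0.36 ± 0.17 and -0.49 ± 0.14, and Slc25a32 at 0.33 ± 0.17 and 0.30 ± 0.13 in these fits. The first part of the sample title (a code of unstated meaning) was also fitted as a covariate. It is the same for maternal exercised replicate 3 and all maternal sedentary libraries. Paternal exercised replicate 2 shares its code with paternal sedentary replicates 1 and 2. No other exercised library shares a code with a sedentary library of its arm. The exercise difference in that fit therefore rests on a single exercised library per arm. It was -0.25 for Slc25a42, -0.21 for Slc25a11, 0.27 for Slc25a32 and -0.33 for Slc25a22. The number of members at an unadjusted p under 0.05 was 4 without maternal sedentary replicate 2. The count over all genes can also change in such a fit, so this number does not single out the members.

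**Figure D4:**
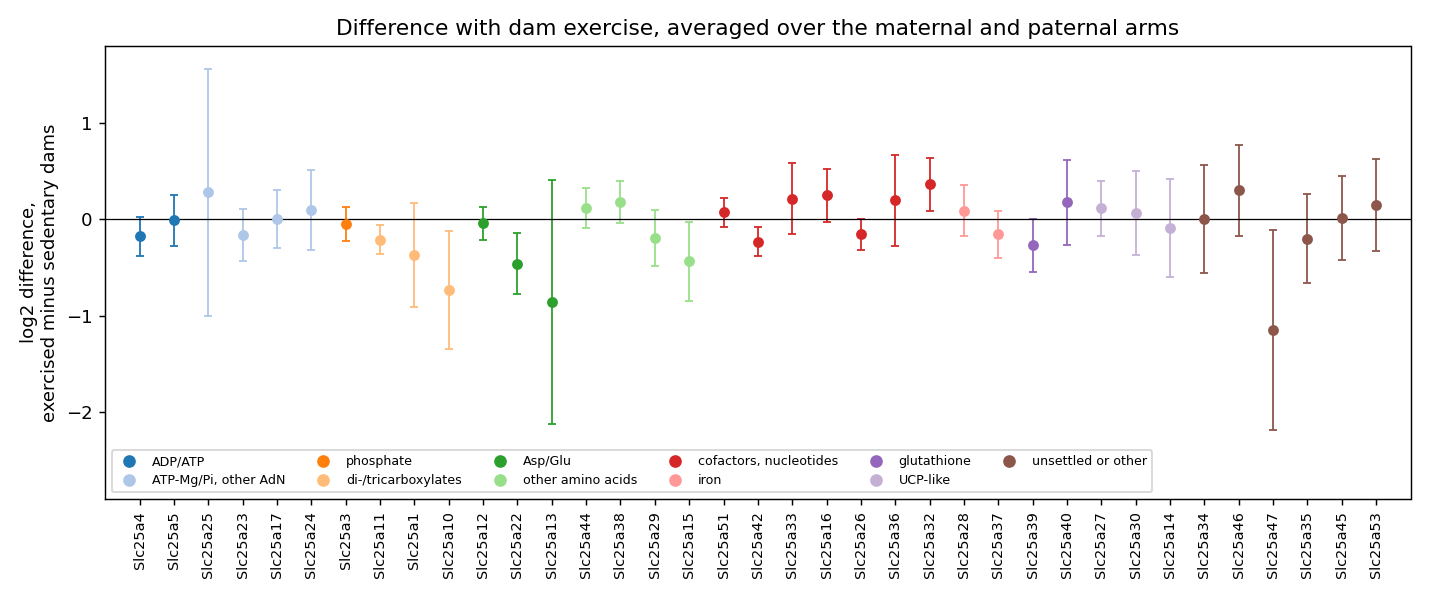
Log2 difference between exercised and sedentary dams, averaged over the maternal and paternal arms, for 37 of the 38 members (dots, coloured by substrate) with its 95% interval. Intervals are narrow for Slc25a11 and Slc25a42 and wide for Slc25a13, Slc25a25 and Slc25a47.

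Summed per length over the 38 members, the family stood at 45465 ± 6579 in control, 46291 ± 2751 in maternal sedentary, 40189.6 ± 1595 in maternal exercised, 42724 ± 2482 in paternal sedentary and 39672 ± 623 in paternal exercised libraries (normalised reads per kilobase, SD, n = 3). This sum is mostly Slc25a4. The maternal exercised libraries (38922 to 41979.9) lay below the maternal sedentary ones (43229.7 to 48556), the paternal groups overlapped, and the controls (39826 to 52693) overlapped all others. In bulk tissue, fewer cells of a kind and less RNA per cell cannot be told apart. The median over members of the averaged exercise difference was -0.03, beside -0.00242 over all genes.

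Several members were highest where liver transcripts were highest. Maternal sedentary replicate 2 was the highest library for 9 of 38 members, beside 7.22% of all genes. In that library Slc25a47 stood at 18.1 times the median of the other 14, Slc25a13 at 11.7 times, Slc25a10 at 4.32 times, Slc25a1 at 2.93 times and Slc25a15 at 2.42 times. The liver marker albumin (Alb) had 44946 reads there and 3 to 3910 in the others. Leaving out that library moved the maternal exercise difference of Slc25a47 from -1.89 ± 0.69 to -0.78 ± 0.44, of Slc25a10 from -1.22 ± 0.41 to -0.67 ± 0.34, of Slc25a1 from -0.86 ± 0.36 to -0.38 ± 0.30 and of Slc25a15 from -0.61 ± 0.27 to -0.20 ± 0.20. Slc25a13 turned from -1.04 ± 0.84 to 0.26 ± 0.59. Without all 4 liver-containing libraries Slc25a47 was at 0.05 ± 0.26, in a fit that keeps 1 maternal sedentary library and assumes that it varies like the others. Over the other 3 liver-containing libraries only Slc25a47, of these 5, was above every library with few liver transcripts. Slc25a13 stood at 10.8 in maternal sedentary replicate 3 and Slc25a1 at 45.4 in paternal sedentary replicate 1, both below their medians over all libraries. Slc25a11 and Slc25a42 were not highest in maternal sedentary replicate 2. Slc25a22 was (1689), and Slc25a11 was highest in control replicate 2 (6663), another liver-containing library. With the liver score as a covariate, the averaged exercise difference of Slc25a22 was -0.31 ± 0.15 in place of -0.46 ± 0.15. In that fit Slc25a11 was at -0.19 ± 0.08, Slc25a42 at -0.19 ± 0.08 and Slc25a32 at 0.38 ± 0.15.

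**Figure D5:**
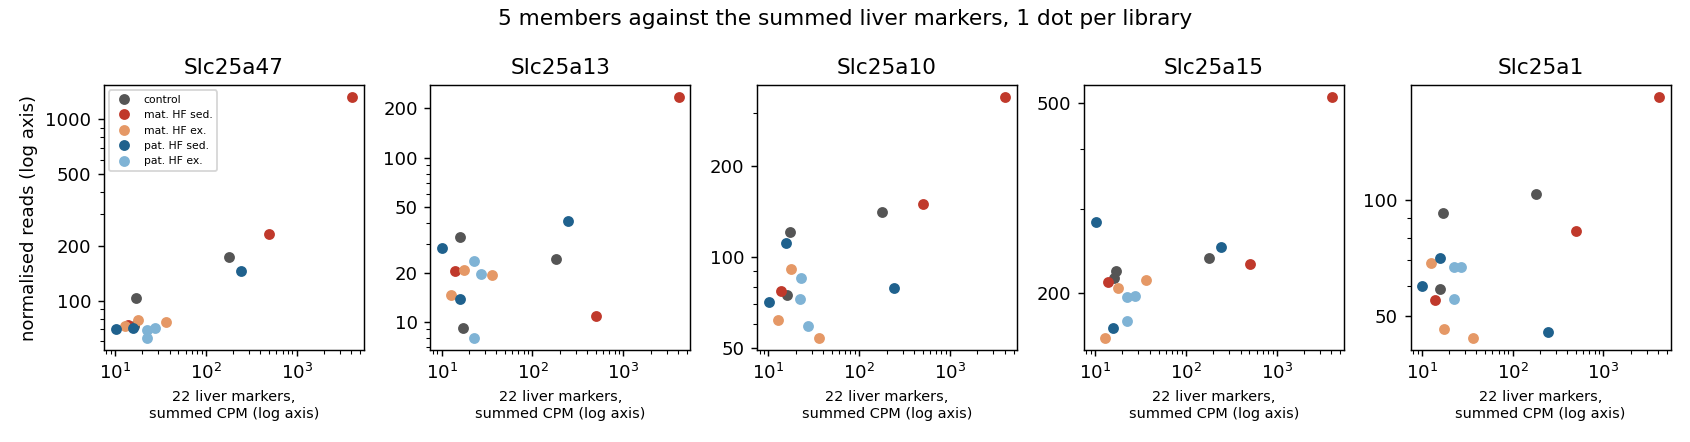
Normalised reads of Slc25a47, Slc25a13, Slc25a10, Slc25a15 and Slc25a1 (log axis) against the summed CPM of 22 liver markers (log axis), with 1 dot per library coloured by group. The dot at 4058 CPM is maternal sedentary replicate 2 and is the highest for all 5 members, and the next 3 values of Slc25a47 are those of the libraries at 180, 244 and 502 CPM.

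The 2 libraries with few detected genes had their own pattern. Both lay below the other 13 for Slc25a16, Slc25a27, Slc25a36 and Slc25a46 (4 of 38, or 10.5%, beside 13.9% of all genes) and above them for 4 members (10.5%, beside 9.16%), among them Slc25a4, Slc25a12 and Slc25a25. These shares lie near those of all genes. The part of this feature in the group differences was not tested beyond leaving the libraries out and fitting the number of detected genes, under which the averaged exercise difference of Slc25a4 was -0.15 ± 0.09 and -0.19 ± 0.07.

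Genes that work with the carriers were read from 11 lists of 67 tested genes. limma called none in any comparison. For exercise averaged over both arms, 11 of 67 had an unadjusted p under 0.05, all lower (5.42% of all genes lower), 48 had lower means (beside 50.4% of all genes) and the median difference was -0.09. In the malate-aspartate shuttle, in which Slc25a11 and Slc25a12 are the carriers, Mdh2 (mitochondrial malate dehydrogenase) averaged 16995 ± 321 in maternal exercised and 17052 ± 540.1 in paternal exercised libraries. It averaged 21062 ± 1829 in maternal sedentary and 18339 ± 2400.4 in paternal sedentary libraries, and the averaged difference was -0.20 ± 0.09. Of 16 ATP synthase subunits, which use the ADP and phosphate brought in by Slc25a4 and Slc25a3, 14 had lower means and 5 had an unadjusted p under 0.05. Among them Atp5g1 was at -0.25 ± 0.08. The coactivator Ppargc1b, which raises mitochondrial genes, was at -0.51 ± 0.16, with 122 ± 29 against 175 ± 15.4 in the maternal and 126 ± 9.21 against 178 ± 38.7 in the paternal arm. Of the 8 regulators in its list 4 were higher and 4 lower on average (median -0.09). The pyruvate carrier subunit Mpc1 was at -0.21 ± 0.09, the cyclophilin Ppif at -0.16 ± 0.10 and the carrier import chaperone Timm13 at -0.19 ± 0.10. The sideroflexin Sfxn5 was at -0.15 ± 0.15, Mtch1 at -0.14 ± 0.08, the transporter Abcb8 at -0.20 ± 0.12 and the uncoupling protein Ucp2 at -0.01 ± 0.17. Each related gene named here had the smallest unadjusted p of limma's F test in its list, and some lists ran otherwise. Of 4 mitochondrial ABC transporters 3 were higher on average (median 0.11), of 2 MTCH genes 1, and of 11 import genes 4. All 5 sideroflexins, 2 pyruvate carrier genes and 2 uncoupling proteins were lower.

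The 8 family genes under the level of 10 were Slc25a18 (mean 9.40), a glutamate carrier, Slc25a2 (3.43), Slc25a43 (1.78), Slc25a21 (1.36), Slc25a48 (1.27), Slc25a41 (0.80), Slc25a54 (0.14) and Slc25a31 (0). The member nearest above the level was Slc25a14 (27.4). These 8 were left out of the main test.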

How the data were processed

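RNA of 15 quadriceps samples was sequenced as 100 bp single-end reads from a stranded, ribosomal RNA-depleted library, per the labels' protocols. Tools and build named in the submitters' processing notes are featureCounts 1.5.2, STAR 2.5.2b, DESeq2 1.11.8 and mm10. The deposited signal per gene and sample is a read count that the authors scaled by 1 factor for each sample. This was read from the values, since each was a whole multiple of the column's smallest step (tolerance 0.001 of a read, 100% of values), and whole reads were recovered. Of 50686 genes, 50462 (99.6%) were found in GENCODE M21 (GRCm38, which mm10 names), which gave symbols, coordinates and exon lengths.

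Groups were compared with limma 3.58.1 (trend; R 4.3.3) on log2(normalised count + 1). A single fit held all 15 samples and 13499 genes with a mean of at least 10, with Benjamini-Hochberg adjustment over all genes. This scale understates changes of low genes. Alternatives were edgeR 4.0.16 (quasi-likelihood), DESeq2 1.42.0 and voom on recovered reads, other scalings, pseudocounts and filters, leaving out libraries, and covariates. The test was checked on simulated data. Named in every library were 14 abundant or well known members and, per comparison, the 3 with the smallest p; in each related list, the gene with the smallest p over the groups was named. A member and a related gene that the rule takes are not reported here by name or in the figures. Other members were named by range or after their values were seen. Members and lists were chosen with earlier results of these data known. Promoter sequences are RefSeq's (GRCm38.p6), matched by symbol for 29 of 38 members. Figures used Python 3.11.15 with matplotlib 3.10.9.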

Additional observations from a re-analysis of the deposited data

How the results depend on the processing

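No member passed the adjusted threshold under any alternative, except Slc25a10 and Slc25a47 without maternal sedentary replicate 1 and, in the DESeq2 test over the 5 groups, Slc25a47 (1 member among 186 genes called). DESeq2 called 18 genes for maternal sedentary against control, 60 for maternal exercise, 1 for paternal exercise, 65 for paternal exercised against control and 32 for exercise averaged over both arms. The liver score as a covariate gave 2 genes for maternal sedentary against control. The title code as a covariate gave 16 for maternal exercise, 11 for paternal exercise, 1 for the difference between the arms and 181 for the average. edgeR and voom called 0 in the average, with 1731 and 1438 genes at an unadjusted p under 0.05, beside 1587 by limma.

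The median difference of the members was -0.134 for maternal exercise with a mean of at least 50. For paternal sedentary against control it was -0.0298 with the slow fibre score and -0.0248 with the number of detected genes (added after seeing the data) as covariates. Without the 2 libraries with few detected genes it was -0.064 for the difference between the arms and -0.0852 for the average, and with the title code -0.0805 and -0.133. Without the liver-containing libraries Slc25a47 turned to -0.24 for maternal sedentary against control and to 0.0482 for maternal exercise, and Slc25a10 to -0.20 between the sedentary groups. By longest transcript, Slc25a12 held 3.25%, Slc25a34 1.54%, Slc25a39 1.21% and Slc25a25 1.07% of the family level.

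With each replicate left out in turn, genes called lay between 0 and 110 and members called between 0 and 2 for maternal exercise. Genes called lay between 0 and 1 for maternal sedentary against control, for both paternal exercised comparisons and for the average. The median of members lay between 0.0261 and 0.122 for maternal sedentary against control, -0.0999 and 0.0103 for maternal exercise, -0.0721 and -0.00297 for maternal exercised against control, -0.00815 and 0.0309 for paternal sedentary against control and -0.0934 and -0.037 for paternal exercise. It lay between -0.0808 and 0.0312 for paternal exercised against control, 0.0415 and 0.0886 between the sedentary groups, -0.077 and 0.0397 for the difference between the arms and -0.0852 and -0.0124 for the average. The causes of these moves were not tested. No paired analysis was possible because the labels give no replicate numbers, and the title code, shared by some libraries across groups, has no stated meaning as a pairing. With 3 libraries per group, these data cannot resolve differences within the intervals given.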

Other observations

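Some family genes are neighbours in the genome but stood at very different levels. Slc25a41 lies 2056 bases from Slc25a23 on chromosome 17 and averaged 0.80 normalised reads against 571. Slc25a54 lies 6461 bases from Slc25a24 on chromosome 3 (0.14 against 45.0), and Slc25a43 lies 18448 bases from Slc25a5 on the X chromosome (1.78 against 333). Slc25a29 and Slc25a47 lie on opposite strands of chromosome 12, with 162 bases between their GENCODE extents. The extent of Slc25a47 begins at 108836046, but its RefSeq start lies far inside it, just after 108851128. The 162 bases are therefore not the distance from that start to Slc25a29. These genes averaged 137 and 181, but Slc25a29 held 145 reads in the maternal sedentary library where Slc25a47 held 1329.9. Per length, Slc25a39 exceeded Slc25a40 by 47.2 to 130 times.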
